A study of Mus musculus with 16 samples.

Results

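The clustered histone genes of AtT-20 cells, 68 of the 24063 genes measured, are described here across 2 ways of giving these cells the transcription factor Pax7. Members were every gene in both deposited tables whose symbol begins with Hist1h, Hist2h, Hist3h or Hist4h, a choice that uses no measured value. They comprise 6 linker histone H1 genes, 18 H2A, 19 H2B, 12 H3 and 13 H4 genes. Of them, 54 lie in histone cluster 1 on chromosome 13, 10 in cluster 2 on chromosome 3, 3 in cluster 3 on chromosome 11, and 1, Hist4h4, alone on chromosome 6. AtT-20 is a mouse corticotrope tumour line, and Pax7 is the factor that specifies melanotropes, the other pituitary cell that makes pro-opiomelanocortin.

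Total RNA was depleted of ribosomal RNA, which keeps transcripts without a poly(A) tail, and sequenced in 16 libraries of 6 groups. Cells expressing 3x flag-Pax7 (2 libraries) were set against cells expressing 3x flag-Neo (2 libraries), both untreated. Cells expressing 3x flag-ER-Pax7, a Pax7 fusion that 4-hydroxytamoxifen activates, were sequenced before treatment (0 h) and after 12, 24 and 96 h under it, giving 3 libraries a time. All groups were AtT-20 cells at passages 10 to 20 in medium with fetal bovine serum, and no vehicle is named for the 0 h cells. Whether libraries of a group stem from separate cultures is not stated, and the spread behind each p-value is that among the libraries, which may be technical. The ER-Pax7 libraries held 61400000 to 88700000 reads. Ribosomal RNA left after depletion was uneven, with Rn45s at 2.345% of 12 h replicate 2 and 0.753% to 1.26% of the other ER-Pax7 libraries. Their values are exon reads scaled to a common total, while the Pax7 and Neo libraries are given in FPKM counted over whole genes, and no test crosses the 2 tables. Pax7 itself stood at 2.29 and 2.36 FPKM in Pax7 cells, against 0 and 0.0104 FPKM in Neo cells, and at 1892 ± 27.0 scaled reads at 96 h and 1724 ± 39.3 at 0 h in ER-Pax7 cells (SD, n = 3 each). Pomc, which encodes pro-opiomelanocortin and so marks corticotropes and melanotropes alike, lay between 73350 and 95370 scaled reads and between 2284 and 2502 FPKM. Of the markers of other cell types, Prl, Fshb and Cd3e were listed at 0 in every library, while others were low but above 0 in the ER-Pax7 libraries: Col1a1 at 16.4 to 28.4, Cd68 at 6.60 to 11.0, Lhb at 1.06 to 3.17 and Ptprc at up to 0.848 scaled reads.

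Replication-dependent histone genes supply the core histones H2A, H2B, H3 and H4, around which DNA is wound, and the linker histone H1, which binds between nucleosomes. Their transcripts accumulate in S phase and, unlike other messenger RNAs, mostly end in a stem-loop instead of a poly(A) tail. The stem-loop is bound by the protein encoded by Slbp. The transcript is cut with help of the U7 small nuclear ribonucleoprotein, and degraded when DNA synthesis stops.

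The stem-loop, the mark of replication-dependent histone messengers, was found in the annotated transcripts (mm10) of 46 of the 67 members with a coding transcript, starting 25 to 62 bases (median 35) after the end of the coding sequence. The variants that at least 2 genes carry are shown on the DNA strand of the gene, 5′ to 3′, with the paired stem in capitals and the loop in lower case.
Hist1h1c: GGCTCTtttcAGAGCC
Hist1h3e: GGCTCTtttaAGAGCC
Hist1h4d: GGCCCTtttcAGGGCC
Hist1h4i: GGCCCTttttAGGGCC
Hist1h4j: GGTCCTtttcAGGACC
The first form was the commonest, in 26 genes: 3 H1, 10 H2A, 8 H2B and 5 H3 genes, but no H4 gene. Positions are counted from 1 at the first base of the commonest form. The form of Hist1h3e, which differs by C10A in the loop, was in 6 genes of types H1, H2B and H3. The form of Hist1h4d differs by T4C and A13G, which exchange one base pair of the stem, and was found in 7 genes, all H4. Another 2 H4 genes, Hist1h4i among them, have T4C, C10T and A13G, and the 2 H4 genes Hist1h4b and Hist1h4j have C3T, T4C, A13G and G14A. Each of the 3 other forms was found in 1 gene. Among the 22 members without a match, 15 have an annotated transcript that ends within 30 bases of the coding sequence, before the usual place of the stem-loop.

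Near-identical copies limit what a short read can tell. By the longest annotated coding sequence of each gene, the 67 coding members hold 63 distinct coding sequences but only 31 distinct proteins. All 13 H4 genes encode 1 protein, the 12 H3 genes 3, the 18 H2A genes 9, the 18 coding H2B genes 12 and the 6 H1 genes 6. Longer annotated forms may add to these counts: Hist2h3c1 is listed with 543 coding bases, beside 408 for Hist2h3c2. Of all 50-base windows of a member's coding sequence, a median of 73.9% also occur in another gene, with medians of 11.0% for H1, 71.2% for H4, 77.1% for H2B, 84.2% for H2A and 85.4% for H3. For 12 members every window is shared, and for 6 none is: Hist1h1a, Hist1h1b, Hist1h1t, Hist2h2bb, Hist2h2be and Hist4h4. Reads of the others may be split between copies, so their single values are less certain than sums over a type. Another 4 pairs of members share a span and were counted once in sums: Hist1h2ao with Hist1h2ap, Hist1h2bq with Hist1h2br, Hist2h3c1 with Hist2h3c2, and Hist2h2aa1 with Hist2h2aa2.

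Promoters were read for 62 members from RefSeq (GRCm38.p6), from 250 bases before to 50 after the start, and searched on both strands for 4 motifs, none of which contains another. The octamer ATTTGCAT, the site of octamer-binding factors, occurred in 7 of 18 H2A and 6 of 16 H2B promoters and in no H1, H3 or H4 promoter, against 1.75% of 27025 promoters of all genes. The CCAAT box (CCAAT) was in every H1, H2A, H2B and H3 promoter but in 3 of 12 H4 promoters, against 37.9% of all. TATAAA was in 35 of 62, against 14.2% of all. The H1 box AAACACA was in 5 of 6 H1 promoters, against 7.14% of all. A match is a description of these letters, not a shown site. Shown here are the promoters of the most abundant member (Hist2h2bb), of the member whose fall at 96 h had the smallest p (Hist1h1c), of the member called lower in both systems with the smallest p in Pax7 against Neo cells (Hist1h4d), and of Hist2h2ac, whose window spans the gap to its divergent neighbour Hist2h2be. Capitals mark the octamer and TATAAA in Hist2h2bb and Hist2h2ac, the H1 box in Hist1h1c and TATAAA in Hist1h4d, where present, on either strand.
Hist2h2bb (chr3:96269450-96269749, plus strand): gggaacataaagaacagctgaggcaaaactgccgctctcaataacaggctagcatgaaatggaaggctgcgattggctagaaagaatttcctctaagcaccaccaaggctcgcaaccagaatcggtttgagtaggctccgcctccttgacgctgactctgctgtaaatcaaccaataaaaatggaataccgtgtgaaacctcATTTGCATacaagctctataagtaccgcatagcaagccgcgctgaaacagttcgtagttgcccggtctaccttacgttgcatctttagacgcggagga
Hist1h1c (chr13:23738557-23738856, plus strand): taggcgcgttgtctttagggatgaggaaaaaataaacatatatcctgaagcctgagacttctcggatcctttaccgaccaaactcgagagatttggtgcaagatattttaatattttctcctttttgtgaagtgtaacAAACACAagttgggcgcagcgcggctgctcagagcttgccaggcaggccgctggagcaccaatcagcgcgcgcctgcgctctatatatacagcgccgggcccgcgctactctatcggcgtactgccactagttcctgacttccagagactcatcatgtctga
Hist1h4d (chr13:23581318-23581617, plus strand): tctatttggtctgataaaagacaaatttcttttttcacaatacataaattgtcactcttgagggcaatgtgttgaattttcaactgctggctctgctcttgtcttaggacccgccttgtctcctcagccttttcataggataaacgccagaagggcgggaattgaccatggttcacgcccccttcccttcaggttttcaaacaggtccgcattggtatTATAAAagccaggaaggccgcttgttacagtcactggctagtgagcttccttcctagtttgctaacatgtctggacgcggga
Hist2h2ac (chr3:96220831-96221130, minus strand): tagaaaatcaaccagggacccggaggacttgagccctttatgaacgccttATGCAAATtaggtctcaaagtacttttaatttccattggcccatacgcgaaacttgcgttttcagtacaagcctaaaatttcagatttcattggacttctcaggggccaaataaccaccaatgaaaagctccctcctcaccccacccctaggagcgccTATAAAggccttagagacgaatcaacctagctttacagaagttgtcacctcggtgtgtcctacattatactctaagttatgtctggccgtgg
Hist2h2bb and Hist2h2ac each hold 1 octamer form, read as ATTTGCAT in the first and as its reverse complement ATGCAAAT in the second. Like Hist2h2ac and Hist2h2be, 11 pairs of members are transcribed away from each other from starts 173 to 306 bases apart, and every such pair joins an H2A gene to an H2B gene.

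Transcript levels differed widely between members of every type. Levels are scaled exon reads per kb, averaged over the 12 ER-Pax7 libraries. Hist2h2bb, an H2B gene of cluster 2, was highest at 11060 per kb. The H4 genes Hist1h4i, Hist1h4c and Hist1h4d followed at 5690, 5584 and 5199 per kb, then the H2A gene Hist3h2a of cluster 3 at 4530. H1 was split sharply: Hist1h1c stood at 4353 per kb, Hist1h1e at 3330, Hist1h1a at 3288 and Hist1h1d at 3102, whereas Hist1h1b reached 10.5 and the testis-type Hist1h1t 1.62. Hist1h3e led the H3 genes at 3332 per kb. The lowest members were the testis-type Hist1h2aa at 0.797 and the copies Hist1h2bq and Hist1h2br at 0.425, whose coding windows are all shared. Between neighbours that face each other, the H2B gene was higher per kb in 8 of 11 pairs. Hist1h2bf exceeded Hist1h2ad 105-fold, though all coding windows of Hist1h2ad are shared and its reads may be counted to copies. The order was reversed for Hist2h2be, at 70.9 per kb, beside Hist2h2ac at 1268, but the listed exon length of Hist2h2be is 2615 bases and that of Hist2h2ac 465, and in scaled reads at 0 h they stood at 193.8 and 621.4.

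**Figure D1:**
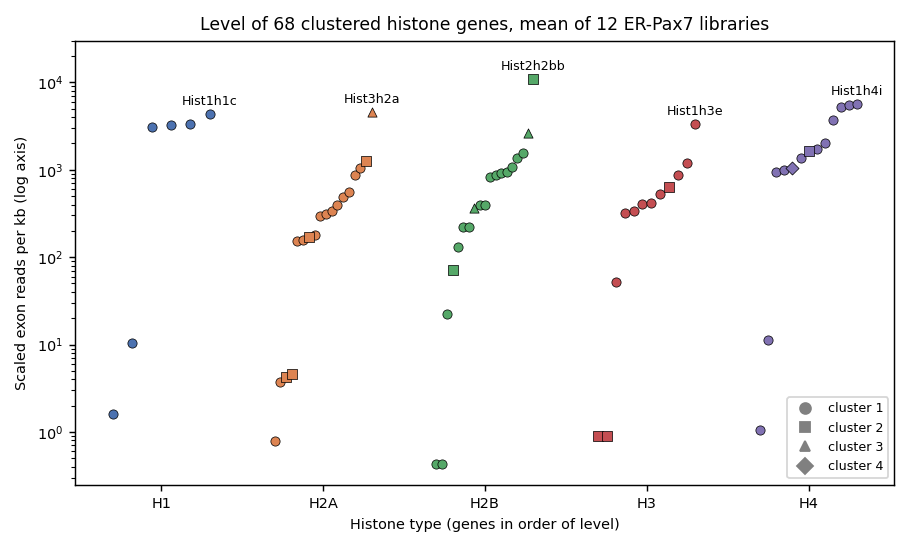
Mean level of each of the 68 members in scaled exon reads per kb (log axis) over the 12 ER-Pax7 libraries, by histone type, with the marker shape giving the cluster. Hist2h2bb stands highest at 11060, the leading gene of every type stands at 3332 or more, and the lowest gene of every type at 1.62 or less.

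Most of the family was lower after 96 h of 4-hydroxytamoxifen in ER-Pax7 cells, with the larger part of the decrease between 24 and 96 h. Over the 64 separate spans, histone transcripts summed to 47960, 44640 and 45350 scaled reads at 0 h, 45980, 44380 and 47760 at 12 h, 42740, 42240 and 43160 at 24 h, then 38500, 36640 and 36190 at 96 h. All 3 libraries at 24 h lay below all 3 at 0 h, and all 3 at 96 h below those at 24 h, while 12 h and 0 h overlapped. The 96 h sum was 37110 ± 1223 against 45980 ± 1749 at 0 h (SD, n = 3 each), a decrease of 19.3%, and the 24 h sum of 42720 ± 460 was 7.09% below 0 h. Every type took part: at 96 h H1 was 22.0%, H3 21.7%, H4 19.9%, H2A 18.0% and H2B 15.9% below 0 h. These values are shares of the RNA sequenced, so fewer cells with these transcripts and less of them per cell cannot be told apart.

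**Figure D2:**
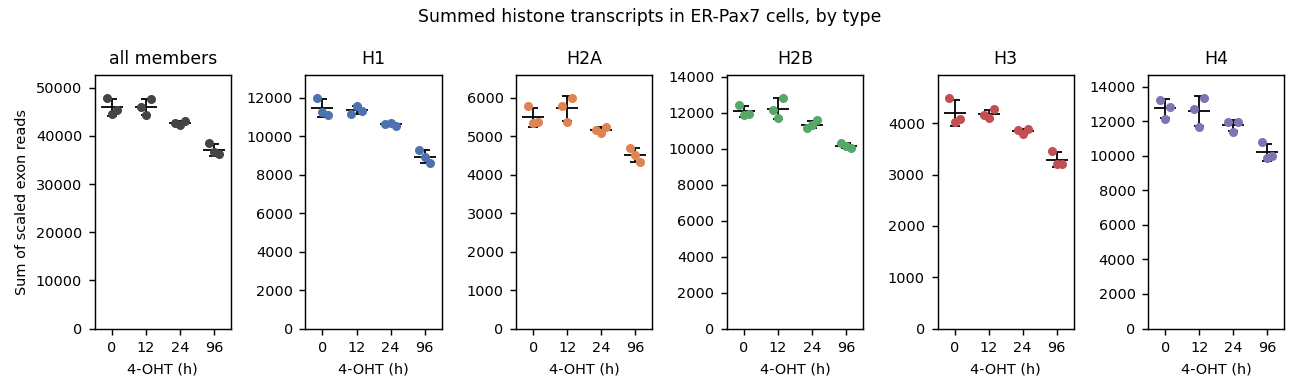
Summed scaled exon reads of all members and of each type in ER-Pax7 cells at 0, 12, 24 and 96 h of 4-hydroxytamoxifen (4-OHT); points are the 3 libraries, bars the mean ± SD, and each axis starts at 0. In every panel the 3 libraries at 96 h lie below all others.

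Gene by gene, 53 of the 64 tested members were called lower at 96 h than at 0 h and none higher (limma, adjusted p under 0.05 over all genes), where 17.3% of all 15188 genes tested were called lower and 16.5% higher. The median log2 fold of the tested members was -0.31, against 0.00 (0.000987) for all genes tested. The same 53 members had no overlap between 96 h and 0 h libraries in that direction, a pattern that 23.1% of all genes showed. Only Hist2h2aa1 and Hist1h2ad lay without overlap in the other direction, against 22.9% of all genes. The called falls lay between -0.55 for Hist1h4n, a copy at under 6 scaled reads, and -0.20 for Hist2h2bb. At an unadjusted p under 0.05, 54 were lower and 1 higher, and edgeR and DESeq2 on recovered reads called 0 higher. The authors' deposited table called 47 members lower and none higher at an FDR under 0.05. A further 4 members, Hist1h4m, Hist1h2aa, Hist2h3c1 and Hist2h3c2, lay at or below 1.2 scaled reads and were not tested at any time.

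Among the linker histones, 4 of 6 fell at 96 h, the 4 abundant ones. Hist1h1c, which encodes the most abundant H1 transcript here, had 3629, 3374 and 3362 scaled reads at 0 h, 3356, 3512 and 3345 at 12 h, 3100, 3230 and 3159 at 24 h and 2692, 2532 and 2421 at 96 h. Its libraries at 24 h lay below those at 0 h and its libraries at 96 h lower again. The log2 fold at 96 h was -0.44 (SE 0.04; limma, adjusted p = 4.52e-08). Hist1h1d fell by 0.39 (SE 0.04; limma, adjusted p = 1.72e-07), Hist1h1a by 0.31 and Hist1h1e by 0.28. Hist1h1a shares no 50-base window with another gene in its coding sequence. It had 2172, 2126 and 2016 scaled reads at 96 h against 2748, 2570 and 2519 at 0 h. The makeup of H1 moved little, with Hist1h1c at 28.5% of the H1 sum at 96 h against 30.2% at 0 h. Hist1h1b, at 6.41 ± 1.17 scaled reads at 96 h and 7.99 ± 1.47 at 0 h (SD, n = 3 each), and Hist1h1t, near 1, were not called.

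Among H2A genes, 13 of 17 tested fell. Hist3h2a, the most abundant, had 2564, 2308 and 2376 scaled reads at 0 h, 2586, 2269 and 2715 at 12 h, 2291, 2181 and 2270 at 24 h and 2078, 1948 and 1868 at 96 h. Only the 96 h libraries stood clear of all others (log2 -0.30, SE 0.05; limma, adjusted p = 2.21e-04 against 0 h). The lowest H2A folds were those of Hist1h2ao and Hist1h2ap, which share a span and stood at -0.43 each. The 4 not called were Hist2h2ab, with -0.13, and 3 genes with positive folds: Hist1h2ad (0.41), Hist2h2aa2 (0.48) and Hist2h2aa1 (0.51). These 3 averaged 1.78 (Hist1h2ad), 3.14 (Hist2h2aa2) and 2.88 (Hist2h2aa1) scaled reads at 96 h, and their coding windows are all shared. Hist1h2ad had 1.42, 1.16 and 0.734 scaled reads at 0 h, 4.01, 2.10 and 2.04 at 12 h, 3.66, 1.92 and 1.67 at 24 h and 1.90, 1.91 and 1.53 at 96 h, and its 12 h fold (log2 0.79 against 0 h) was not called either (limma, adjusted p = 0.0695).

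Among H2B genes, 14 of 19 fell. Hist2h2bb, the highest member of all, had 5840, 5625 and 5559 scaled reads at 0 h, 5615, 5403 and 5960 at 12 h, 5356, 5392 and 5441 at 24 h and 5001, 4971 and 4872 at 96 h, and its fall of 0.20 (SE 0.04; limma, adjusted p = 3.02e-04) was the smallest among called members. Hist2h2be, a gene whose transcript can also be polyadenylated, followed another course. It stood at 187, 202 and 192 scaled reads at 0 h, 195, 195 and 207 at 12 h, 194, 208 and 201.4 at 24 h, then 139, 151 and 155 at 96 h. It was not called at 24 h against 0 h (log2 0.05; limma, adjusted p = 0.601), and at 96 h against 24 h it fell by 0.44 (SE 0.05; limma, adjusted p = 1.63e-05), the largest fall of that interval among members. Both genes share no window with another. The H2B copy Hist1h2bg had 144, 141 and 169 scaled reads at 96 h against 173, 151 and 233 at 0 h, and Hist1h2bf had 144, 165 and 136 at 96 h against 188, 202 and 137 at 0 h. Among these 6 libraries, replicate 3 at 0 h was the highest of the first and among the lowest of the second. Each shares over 80% of its windows (86.0% and 80.2%), and neither was called.

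All 10 tested H3 and all 12 tested H4 genes fell at 96 h. Hist1h3e, the most abundant H3 gene, averaged 1309 ± 68.0 scaled reads at 96 h and 1681 ± 101 at 0 h (SD, n = 3 each; log2 -0.36, SE 0.05; limma, adjusted p = 2.90e-06). The lowest H3 folds were those of Hist1h3f (-0.52), at 37.7 ± 2.56 against 54.7 ± 6.80 scaled reads, and Hist1h3c (-0.44). Hist1h4d, among the most abundant H4 genes, had 1692, 1612 and 1613 scaled reads at 96 h against 2155, 1974 and 1991 at 0 h (log2 -0.31, SE 0.04; limma, adjusted p = 1.36e-06). Hist4h4, the solitary gene of chromosome 6, shares no window with the other H4 genes although it encodes the same protein. It had 508, 479 and 482 scaled reads at 0 h, 523, 466 and 534 at 12 h, 467, 448 and 429 at 24 h and 411, 385 and 362 at 96 h. Its fall of 0.34 (SE 0.05; limma, adjusted p = 3.94e-05) was close to the H4 median of -0.33.

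Members called lower at 96 h came from all 4 locations. By position, 44 of 52 tested members of cluster 1 were called lower, 5 of 8 of cluster 2, all 3 of cluster 3 and Hist4h4. By read sharing, 4 of the 6 members that share no window were called lower, with a median log2 fold of -0.30, and the other 2 were Hist1h1b and Hist1h1t. Of the 48 tested members that share part of their windows 44 were called lower, and of the 9 that share all 4 were. Of the 10 facing pairs with both genes tested, 8 had both called lower. All 6 members known to yield polyadenylated transcripts as well were called lower, where 53 of all 64 tested members were. They are Hist1h1c, Hist1h2bc, Hist2h2be, Hist1h2ac, Hist3h2a and Hist3h2ba. Neither of the tested testis-type members was called, Hist1h1t (-0.07) and Hist1h2ba (-0.22). Both are low, Hist1h1t at 1.09 scaled reads at 0 h and 0.974 at 96 h, and Hist1h2ba at 9.33 and 7.87.

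**Figure D3:**
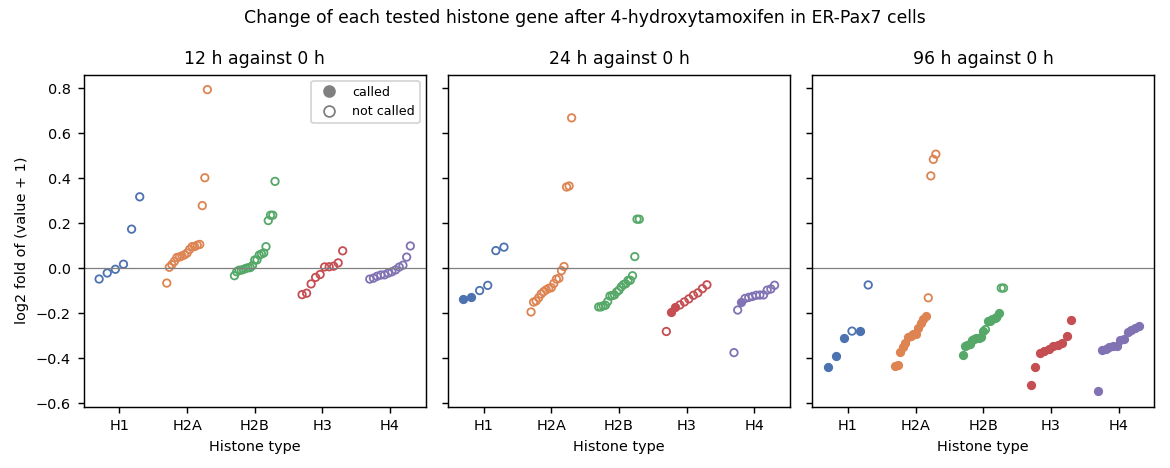
Log2 fold of (scaled exon reads + 1) of each tested member at 12, 24 and 96 h against the shared 0 h libraries, by histone type, in order of fold; filled points passed the limma test. At 96 h all members but 3 low H2A copies lie below 0, and the H3 and H4 points are all filled.

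A general decrease was absent at 12 h and small at 24 h, with few calls. At 12 h none of the 64 tested members was called in either direction, where 2.92% of all genes were called higher and 3.61% lower; edgeR and DESeq2 on recovered reads also called 0, and at an unadjusted p under 0.05 Hist1h2ad was higher and Hist1h3g lower. The median fold of the members was 0.02. At 24 h 5 members were called lower and none higher, where 7.92% of all genes were called lower and 5.66% higher, a share near the background. The median member fold was nevertheless -0.11 with 55 of 64 below 0, against 48.8% of all genes. The 5 were Hist1h3i (-0.19; limma, adjusted p = 0.0279), Hist1h3g (-0.17), Hist1h4j (-0.15), Hist1h1d (-0.13) and Hist1h1c (-0.13), and all 5 were also called lower at 96 h. At an unadjusted p under 0.05, 23 were lower and 1 higher, and edgeR and DESeq2 on recovered reads called 0 higher. None of the 5 calls was kept whichever library was left out: 0 members were called lower without 0 h replicate 1, 2 without 0 h replicate 3, 1 without 24 h replicate 1, 1 without 24 h replicate 2, and 11 without 24 h replicate 3. Scaled by library totals, 1 was called, and the authors' deposited table called 1 lower, Hist1h1d. The 12, 24 and 96 h comparisons share the 0 h libraries.

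Between 24 and 96 h, 35 of 64 tested members were called lower and none higher, where 6.62% of all genes were called lower and 6.03% higher, and each of the 35 was also lower against 0 h. At an unadjusted p under 0.05, 46 were lower and 0 higher, and edgeR and DESeq2 on recovered reads called 0 higher. The authors' deposited table called 23 members lower for this interval. The median member fold was -0.20. After Hist2h2be the lowest were Hist1h2ao and Hist1h2ap (-0.34 each) and Hist1h1c (-0.31; limma, adjusted p = 2.61e-05). Leaving out a single library cut this count to 21 (without 96 h replicate 2) or 17 (without 96 h replicate 3), and 15 of the 35 were kept whichever library was left out. Against 0 h, 49 of the 53 calls were kept in the same way, with Hist1h4n, Hist3h2bb-ps, Hist1h2an and Hist1h2bm lost.

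Cells expressing 3x flag-Pax7 showed no general decrease. In Pax7 against Neo cells, 12 of 66 tested members were called higher and 10 lower, where 18.1% of all 13393 genes tested were called higher and 18.5% lower, so both shares are near the background. By type, H1 had 2 higher and 2 lower of 6 tested, H2A 2 higher and 1 lower of 18, H2B 4 higher and 3 lower of 17, H3 3 higher of 12, and H4 1 higher and 4 lower of 13. The median member fold was 0.03. Scaled by library totals, 12 members were called higher and 6 lower, and 67.7% of all calls were higher, against 49.4% with TMM. Summed FPKM was 12540 and 12020 in Pax7 cells against 12610 and 12870 in Neo cells, 3.61% lower in Pax7 cells, but 1.76% higher on the deposited values without further scaling. Hist1h2bq and Hist1h2br, below 0.1 FPKM throughout, were not tested. The authors' deposited table called 3 members lower and none higher at an FDR under 0.05, and only 24 genes in all, against 2424 genes called higher and 2482 lower by limma: the 3 were Hist1h4d (3.97e-24), Hist1h1e (0.00149) and Hist1h4c (0.00169).

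The members that were lower in Pax7 cells included abundant H4 and H1 genes of cluster 1. Hist1h4d had 751 and 747 FPKM in Pax7 cells, against 1114 and 1067 FPKM in Neo cells (log2 -0.54, SE 0.04; limma, adjusted p = 0.00487). Hist1h4f (-0.34) and Hist1h4c (-0.27) were also called, while 8 other H4 genes were not and Hist2h4 was higher (0.18). The H4 sum was 10.1% lower in Pax7 cells, or 5.16% lower on the deposited values. Hist1h1e, a linker histone gene, had 539 and 520 FPKM in Pax7 cells, against 711 and 643 FPKM in Neo cells (log2 -0.35, SE 0.06; limma, adjusted p = 0.0218). The H2A gene Hist1h2af (-0.42) and the H2B genes Hist1h2bb (-0.27), Hist1h2be (-0.16) and Hist1h2bf (-0.15) were called as well. The last 2 of the 10 passed the filter on low values only through the Neo libraries: Hist1h4m was listed at 0 in both Pax7 libraries, against 0.121 and 0.178 FPKM in Neo cells, and Hist1h1t had 0.0574 and 0.0496 FPKM in Pax7 cells, against 0.182 and 0.240 FPKM in Neo cells.

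The members that were higher in Pax7 cells came from all types and from clusters 1, 2 and 3. Hist1h1a had 305 and 276 FPKM in Pax7 cells, against 235 and 248 FPKM in Neo cells (log2 0.27, SE 0.07; limma, adjusted p = 0.0427), so it rose where Hist1h1e fell. Its share of the H1 sum was 13.6% in Pax7 cells and 10.9% in Neo cells, and that of Hist1h1e 24.7% and 30.6% in the same order. Hist1h1b (0.76) was also called, at under 1 FPKM. Hist2h2be, which shares no window, had 6.99 and 7.25 FPKM in Pax7 cells, against 5.44 and 5.06 FPKM in Neo cells (log2 0.43, SE 0.05; limma, adjusted p = 0.00842). In cluster 3 Hist3h2bb-ps, an H2B copy whose symbol marks it as a pseudogene, stood at 39.3 ± 0.319 against 27.1 ± 0.576 FPKM (SD, n = 2 each; log2 0.53; limma, adjusted p = 0.00301), and Hist3h2ba was called as well (0.22), while Hist3h2a was not (0.16; limma, adjusted p = 0.126). The cluster 3 sum was 14.6% higher in Pax7 cells, with both Pax7 libraries (993 and 921 FPKM) above both Neo libraries (807 and 863 FPKM). Among H3 genes Hist1h3g (0.43), Hist1h3i (0.25) and Hist1h3h (0.24) were higher, and the others called were Hist1h2an (0.41), Hist1h2ac (0.37), Hist1h2bj (0.22) and Hist2h4.

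In this comparison H2A genes mostly had higher folds than the H2B genes they face. In 9 of 11 pairs, all 9 in cluster 1, the log2 fold of the H2A gene in Pax7 against Neo cells lay above that of its H2B neighbour, for example 0.37 for Hist1h2ac beside -0.07 for Hist1h2bc, and 0.41 for Hist1h2an beside -0.01 for Hist1h2bp. Some of the 9 carry little weight. Hist1h2ak (-0.01) and Hist1h2bn (-0.02) hardly differed, and Hist1h2aa averaged 0.103 FPKM in Pax7 cells and 0.0973 FPKM in Neo cells. Hist1h2ad overlapped between groups, at 0.382 and 0.754 FPKM in Pax7 cells against 0.394 and 0.334 FPKM in Neo cells. In clusters 2 and 3 the order was the other way, with 0.10 for Hist2h2ac beside 0.43 for Hist2h2be. The ratio of summed H2A to summed H2B FPKM was 0.536 and 0.519 in Pax7 cells, against 0.490 and 0.501 in Neo cells, and that of H4 to H3 was 2.95 and 3.04 against 3.30 and 3.39. At 96 h against 0 h the order within pairs was even, with the H2A fold above in 5 of 10 pairs. These differences between neighbours were not tested, and the pairs share sequence with one another.

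With 2 libraries a group, most of these calls were not kept when a library was left out. Each such fit has a single library in 1 group, so calls can be lost through the smaller fit alone. Whether they depend on any 1 library cannot be told from this. Without Pax7 replicate 2 only 4 members were called higher and 4 lower, and without Pax7 replicate 1 the counts were 5 and 4; without Neo replicate 1 they were 7 and 7, and without Neo replicate 2 7 and 4. Calls kept whichever library was left out were Hist3h2bb-ps, Hist2h2be, Hist1h3g and Hist1h2ac among the higher and Hist1h2af and Hist1h4d among the lower. Pax7 cells and Neo cells are a single pair of populations, in which Pax7 and any other difference cannot be told apart.

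The 2 systems share no library, and their calls can be set side by side. Since 53 of the 64 tested members were called lower at 96 h against 0 h, most members are so whatever their call in Pax7 cells. Of the 12 members called higher in Pax7 against Neo cells, 11 were called lower at 96 h, which is 91.7% of those 12 and 20.8% of the 53 called at 96 h. Of the 10 called lower in Pax7 cells, Hist1h4m was not tested at 96 h, and 7 of the other 9 were called lower there. Among these 7, Hist1h2be was counted over a different annotated transcript in each system. Its listed exon length is 2476 bases for ER-Pax7 cells, and its gene body 444 bases for Pax7 and Neo cells. A further 35 members lower at 96 h were not called in Pax7 cells. Hist2h2be, which shares no window, was called in both: its fitted fold was a rise of 34.9% in Pax7 against Neo cells and a change of -23.4% at 96 h against 0 h. Hist1h4d was lower in both. The difference between the 2 systems was not tested, since their values are in different units.

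**Figure D4:**
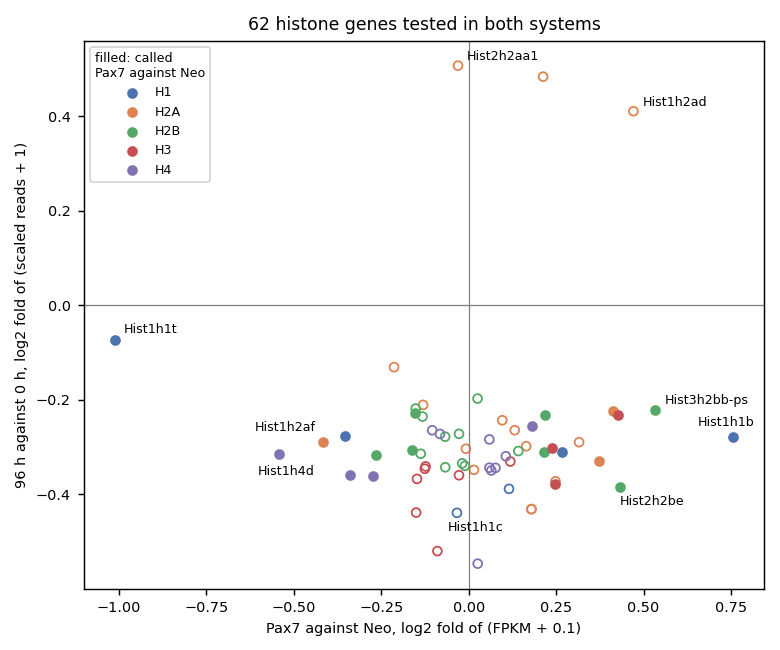
Log2 fold of 62 members in Pax7 against Neo cells (horizontal) and at 96 h against 0 h of 4-hydroxytamoxifen in ER-Pax7 cells (vertical), coloured by histone type; filled points were called in Pax7 against Neo cells. Points spread to both sides of 0 horizontally, while all but 3 low H2A copies lie below 0 vertically.

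Among genes related to histones, the histone variants held the most falls at 96 h. The variants not limited to S phase, whose genes lie outside the clusters, had 6 of 11 tested members called lower and 1 higher. Of all genes, 17.3% were called lower at 96 h against 0 h and 16.5% higher. H1f0, a linker histone of slowly dividing and differentiated cells, fell most, to 3258 ± 49.9 scaled reads at 96 h against 4677 ± 207 at 0 h (SD, n = 3 each; log2 -0.52, SE 0.03; limma, adjusted p = 2.86e-10). H2afv (-0.38), H1fx (-0.30), H3f3a (-0.27), H3f3b (-0.20) and H2afx (-0.20) fell as well, H2afy2 rose (0.13), and H2afz (-0.10) and Cenpa (-0.08) were not called. In Pax7 against Neo cells 4 of 11 tested variants were called lower and 0 higher, where 18.5% of all genes were called lower and 18.1% higher. The 4 were H2afv (-0.52), H2afx (-0.51), H3f3a (-0.39) and Cenpa (-0.37), while H1f0 was not called (log2 0.12, limma, adjusted p = 0.0582).

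Slbp, which encodes the stem-loop binding protein, fell in both systems. Its means were 1011 ± 19.4 scaled reads before treatment, 990 ± 38.2 after 12 h, 922 ± 23.0 after 24 h and 893 ± 18.2 after 96 h (SD, n = 3 each), and it was called lower at 24 h (log2 -0.13; limma, adjusted p = 0.0152) and at 96 h (-0.18; limma, adjusted p = 5.78e-04). In Pax7 cells it had 10.0 ± 0.337 FPKM, against 11.7 ± 0.253 FPKM in Neo cells (SD, n = 2 each; log2 -0.23; limma, adjusted p = 0.0184). Lsm11, a protein of the U7 particle, was likewise lower at 96 h (-0.23) and in Pax7 cells (-0.49), while its partner Lsm10 was not called in either (-0.01 and 0.05). In all, 5 of 17 tested genes of histone messenger processing and decay rose at 96 h, where 16.5% of all genes rose and 17.3% fell, led by Upf1 (0.20), a helicase of histone messenger decay, and Cstf2 (0.16), and only Slbp and Lsm11 fell. In Pax7 against Neo cells 4 rose and 4 fell, against a background of 18.1% and 18.5% of all genes. Of the 9 genes of histone gene transcription, only Cdc25a was called at 96 h (0.13); Npat (0.10), its partner Casp8ap2 (0.06) and Hinfp (0.08), which act in transcription at the histone clusters, were not, and they were not called in Pax7 cells either (-0.05, 0.04 and 0.06). From the same list the cyclin E genes Ccne1 (0.18) and Ccne2 (0.19) were called higher in Pax7 against Neo cells.

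Genes of S phase mostly did not fall with the histones at 96 h. Of 20 DNA replication genes 7 were called higher and 1 lower, where 16.5% of all genes were called higher and 17.3% lower. Their median log2 fold was 0.05. Rrm2 (0.21) and Cdt1 (0.18) were among the higher, Tyms (-0.13) was lower, and Pcna (0.01) and Mcm6 (-0.01) were not called. Of 12 mitosis genes 3 fell, Ccnb2 (-0.27), Cdc20 (-0.13) and Top2a (-0.12), with a median of -0.05. Among 7 CDK inhibitors Cdkn1b (0.16) rose and Cdkn2c (-0.26) and Cdkn1c (-0.19) fell. Of the histone chaperones, Tonsl (0.21) and Ipo4 (0.19) rose, Rbbp4 (-0.10) fell and 13 of 16 were not called. Against the same shares of all genes, the mitosis, CDK inhibitor and chaperone calls at 96 h were few and near the background. In Pax7 against Neo cells all 12 mitosis genes were called lower (median -0.33), led by Top2a (-0.61), 7 of 16 chaperones were lower and 1 higher, and DNA replication had 3 higher and 5 lower of 20, where 18.1% of all genes were called higher and 18.5% lower, so the replication counts are near the background. The mean log2 level of the members over the 12 ER-Pax7 libraries ran most like those of Tubb5 (Pearson r = 0.975), Wfdc2 (0.969), Amdhd2 (0.968) and Krt7 (0.968), 12 points that share libraries and 4 times.

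**Figure D5:**
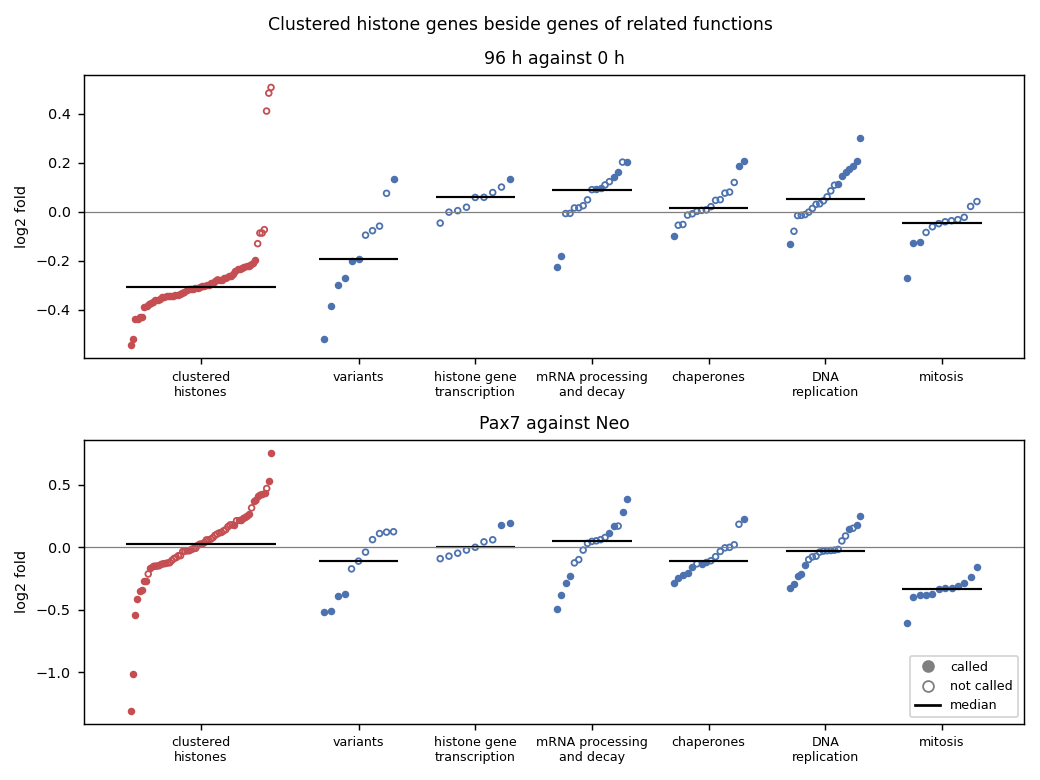
Log2 folds of the tested clustered histone genes (red) beside those of variant histones and genes of histone transcription, messenger processing and decay, chaperones, DNA replication and mitosis (blue), at 96 h against 0 h (top) and in Pax7 against Neo cells (bottom); filled points were called and the bar is the median. The histone median of -0.31 at 96 h lies below those of all 6 other lists, while in Pax7 against Neo cells the mitosis genes lie lowest, at -0.33.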

How the data were processed

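RNA of 16 libraries in 6 groups was sequenced as paired reads of 50 bases, per the labels' protocols. TopHat, HOMER and edgeR and the build mm10 (GRCm38) are named without versions in the submitters' processing notes. For ER-Pax7 cells the authors deposited a signal per gene, reads over its exons scaled to a common total of 7210000 per library, per the file headers. For Neo and Pax7 cells the authors deposited FPKM over whole gene bodies, also brought to a common total, per the file headers. Both deposited tables carry the authors' edgeR log2 folds and p-values with FDR, and for Neo and Pax7 cells the header shows that these came from the FPKM values. No strand option stands in the headers, so reads of overlapping genes cannot be told apart.

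Values were scaled by TMM factors (edgeR 4.0.16) and tested by limma 3.58.1 with a trend in R 4.3.3, on log2 of the value plus 1 scaled read or 0.1 FPKM, so folds of low genes are understated. Genes needed 1 scaled read in 3 libraries or 0.1 FPKM in 2. The 12 ER-Pax7 libraries shared 1 fit, p-values were adjusted by Benjamini-Hochberg over all genes of a table, and calls are at an adjusted p under 0.05. The scripts were tested on simulated data with 200 changed genes, at an assumed depth for Neo and Pax7 cells. Of simulated 1.25-fold changes, 98% were recovered for 96 h against 0 h and 6.12% for Pax7 against Neo cells. Of 1.5-fold changes, 65.3% were recovered for Pax7 against Neo cells. In every ER-Pax7 library 100% of low values were whole multiples of 1 read within 0.1 reads. Of values up to 200 scaled reads, 90.8% (24 h replicate 3) to 100% (0 h replicate 1) were multiples within rounding. On this ground edgeR and DESeq2 1.42.0 were also run on the recovered reads, 61400000 to 88700000 a library. The depth of the Neo and Pax7 libraries is unknown. Other alternatives were library totals and median-of-ratios scaling, other pseudocounts, no filter, a replicate block, fewer groups in the fit and leaving out each library. Sums count members with a shared span once. Named genes were the 3 highest of each type per length, the called members with up to 10 highest and 10 lowest folds per comparison, and the fixed lists. Values of other list genes, and members beside these, were added after their values were seen. Membership used the symbol alone, but this family and the lists were chosen with earlier results of these data known.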

Additional observations from a re-analysis of the deposited data

How the results depend on the processing

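No alternative reversed a direction among the tested results; the untested FPKM sum over all members in Pax7 against Neo cells changed sign, -3.61% with TMM and 1.76% on the deposited values. The 53 members called lower at 96 h against 0 h numbered 50 to 55 under every alternative run, including 53 by edgeR and 52 by DESeq2 on recovered reads, and 50 to 53 when 1 library was left out. One member was called higher there, without 96 h replicate 3 (range 0 to 1). At 24 h the 5 called lower became 1 with library totals, 2 with no filter, 3 with only the groups compared, and 0 to 11 without 1 library. Between 24 and 96 h the 35 called lower became 23 with no filter and 17 to 30 without 1 library. In Pax7 against Neo cells the 10 called lower became 6 with library totals and 4 to 7 without 1 library, and the 12 called higher became 4 to 7 without 1 library. With library totals the median fold of all genes there was 0.07 and 67.7% of all calls were higher, against 49.4% with TMM. That share was 49.9% with library totals at 24 h, against 41.7% with TMM. Deviations from the group means correlated at -0.08 to 0.14 between same-numbered ER-Pax7 libraries of different times, and at -0.13 to 0.10 between other-numbered ones. Of the 12 ER-Pax7 libraries, 8 correlated best with a library of their own number. In Neo and Pax7 cells the same-number correlation was 0.04. These values do not settle whether the numbers pair libraries, and the main fit used group means only. With a replicate block 6 members were called higher in Pax7 cells, 1 higher at 12 h, and 18 lower and 1 higher at 24 h. Except where the construction of an alternative shows it (fewer libraries or groups, more genes tested), the cause was not tested. Among single named genes 102 values lost their call under some alternative with the same direction. With 2 or 3 libraries a group, small folds of low copies were not detectable. With 2 libraries a group, in Pax7 against Neo cells, small folds of abundant genes may be missed as well. Shared sequence limits every single-copy value.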
